A study of Brassica rapa subsp. pekinensis with 6 samples.

Results

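The miR170/miR171 family of small RNAs was examined in germinated seeds of Chinese cabbage (Brassica rapa ssp. pekinensis), the leafy Brassica vegetable. Its members were all mature sequences whose deposited name held -miR or -MIR followed by the number of miR170 or of miR171 and no further digit, with any species prefix, arm or suffix. This gave 13 distinct sequences on 20 rows, of 889 distinct sequences on 1159 rows in the whole table. The 3 Ver libraries came from germinated seeds kept in the dark at 4 °C for 25 days, which is the vernalization treatment, and the 3 Nor libraries came from germinated seeds left at room temperature, also in the dark per the methods of the study, for about 48 hours. All seeds were from 1 doubled haploid line, 'FT', and were germinated on wet filter paper. The comparison asks which miRNAs differ after vernalization, the long cold exposure that lets many crucifers flower. The groups differed in temperature and in time since germination, which cannot be told apart, and per the methods both were sampled once they had reached equal length. Whole seeds were used, so fewer cells of a type and less RNA per cell cannot be told apart either, and small RNA libraries hold no marker mRNAs against which the tissue could be checked.

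The miR170/miR171 family is one of the oldest plant miRNA families. In Arabidopsis thaliana its 3p strand guides cleavage of mRNAs of GRAS transcription factors of the HAIRY MERISTEM group, also called SCL6-type genes, which keep cells of the shoot meristem undifferentiated and affect branching and chlorophyll formation. A plant miRNA is cut as a duplex from the stem of a hairpin precursor. The 3p strand of this family is the one that pairs with the GRAS mRNAs, and the 5p strand is its partner in the duplex, for which a target outside the GRAS genes has also been described in Arabidopsis. GRAS mRNAs were not analysed here.

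The 7 sequences that carried nearly all family reads are shown 5′ to 3′ with the DNA letters of the table, since they differ from each other by few bases. Capitals mark bases 2 to 8, by which the sequences can be grouped, although a plant miRNA pairs with its target over most of its length. The 4 sequences of the 3p arm come first.
bra-miR171e: tGATTGAGccgcgccaatatc
bna-miR171f_1ss14CT: tGATTGAGccgcgtcaatatc
bra-miR171a: tTGAGCCGtgccaatatcacg
gma-miR171c-3p_2ss19AT21AT: tTGAGCCGtgccaatatctct
ath-miR170-5p: tATTGGCCtggttcactcaga
aly-miR171b-5p: aGATATTAgtgcggttcaatc
gma-miR171o-5p_2ss1AC17CG: cGATATTGgtacggttgaatc

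Positions are counted from 1 at the 5′ end. The bna-miR171f_1ss14CT sequence differs from bra-miR171e by C14T alone and is called the C14T form from here on. It was listed under a second name, mtr-miR171d_2ss12TC14CT, with the same reads. The sequence of bra-miR171a begins 3 bases further into bra-miR171e, matches it over 18 nt with the 1 difference C12T, and so has another seed. The gma-miR171c-3p_2ss19AT21AT sequence differs from bra-miR171a at its 3′ end by A19T and G21T. Among the 5p arms, gma-miR171o-5p_2ss1AC17CG differs from aly-miR171b-5p by A1C, A8G, G11A and C17G. The aly-miR171b-5p sequence was also listed as bra-MIR171d-p5 and bra-MIR171b-p5.

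The seeds were rarely found outside the family. At bases 2 to 8, the 4 seeds of bra-miR171e, bra-miR171a, ath-miR170-5p and aly-miR171b-5p occurred in 0 of the 876 other sequences. The seed of gma-miR171o-5p_2ss1AC17CG occurred in 1, the predicted PC-5p-90014_28, which was listed on the same hairpin. Among the seeds found only in family sequences with few reads, ATAATGA occurred in 1 other sequence and ATGATTG in 0. The 8-nt stretch TTGAGCCG was chosen as the longest one shared by the 3p type, 7 of the 13 family sequences, so its presence in them was given. It was present in 0 of the 876 others.

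The hairpins that produce these sequences are shown next, as listed by the authors on B. rapa v3.0, because the same mature sequence occurs in several of them. Capitals mark every exact copy of a family sequence, with the 5p arm on the left.
MIR171E, A03:23043359-23043477, plus strand: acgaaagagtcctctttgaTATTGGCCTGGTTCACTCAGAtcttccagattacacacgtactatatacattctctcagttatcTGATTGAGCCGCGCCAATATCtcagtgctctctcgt
A09:33071304-33071424, plus strand: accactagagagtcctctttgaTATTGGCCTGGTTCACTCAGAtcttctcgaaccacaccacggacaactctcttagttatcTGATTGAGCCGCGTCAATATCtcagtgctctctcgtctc
A01:12539097-12539213, minus strand: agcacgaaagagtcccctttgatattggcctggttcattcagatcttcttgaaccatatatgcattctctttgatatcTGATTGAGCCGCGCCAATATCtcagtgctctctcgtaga
MIR171C, A08:21071204-21071326, plus strand: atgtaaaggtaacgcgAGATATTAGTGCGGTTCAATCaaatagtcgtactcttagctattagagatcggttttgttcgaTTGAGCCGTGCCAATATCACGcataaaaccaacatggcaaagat
MIR171A, A03:36790829-36790924, plus strand: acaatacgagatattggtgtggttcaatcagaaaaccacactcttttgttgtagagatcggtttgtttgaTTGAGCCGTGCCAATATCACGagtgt
A06:10287031-10287128, minus strand: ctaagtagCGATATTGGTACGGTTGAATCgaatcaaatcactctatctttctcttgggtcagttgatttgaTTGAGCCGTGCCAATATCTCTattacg

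The first 3 of these hairpins carry the GATTGAG type of 3p arm and the others the TGAGCCG type. Besides MIR171C, the whole aly-miR171b-5p and bra-miR171a sequences were also found in MIR171D (A06:4528169-4528269, minus strand) and MIR171B (A09:42751142-42751245, plus strand), so reads of this duplex cannot be assigned to 1 of the 3 loci. MIR171A holds bra-miR171a as well, but its 5p arm differs from aly-miR171b-5p by A8G and C12T, and 0 rows of the table listed that 5p sequence. Likewise, ath-miR170-5p was listed at MIR171E alone but is also present, whole, in the hairpin on A09:33071304-33071424 that carries the C14T form. The hairpin on A01 holds bra-miR171e itself, while the table listed it for the C14T form, which is not in it. Its 5p arm differs from ath-miR170-5p by C16T and was listed on 0 rows. One further entry, A06:4528104-4528210 on the minus strand, contains the whole MIR171D hairpin although the listed positions of the 2 share only 42 bases, so it was not read as a separate locus.

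Most of the loci overlapped annotated genes, besides miRNA genes, of the RefSeq table of the assembly CAAS_Brap_v3.01. The span of a protein-coding gene enclosed the A09 hairpin of the C14T form (LOC103841059) and the A01 hairpin (LOC103872397). A protein-coding gene overlapped MIR171E (LOC103860708), MIR171C (LOC103836207) and MIR171D (LOC103871922), but whether it enclosed each of them was not determined. MIR171B overlapped a lncRNA gene (LOC103843229), with enclosure likewise not determined. MIR171A and the hairpin on A06:10287031-10287128 overlapped no other gene. Of the 80 RefSeq miRNA genes that overlapped a precursor of the table, 71 had the same start and end in both, so the coordinates were read as one system. Exons, UTRs and the strand of the overlapping genes were not analysed here.

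Depth set what could be compared. The table held 771529, 589061 and 599329 miRNA reads in Ver 1, 2 and 3, against 968483, 751398 and 749852 in Nor 1, 2 and 3. These are reads assigned to listed sequences and not the sequencing depth. Levels are stated in RPM, reads per 1e+06 reads of a TMM-scaled library (factors 0.949 to 1.05). Of the 889 sequences, 405 passed the low-count filter of edgeR and were tested. Of these, 247 passed an adjusted p of 0.05, which is 61% of those tested, with 28.1% higher and 32.8% lower in Ver than in Nor (edgeR quasi-likelihood test, Benjamini-Hochberg over 405 sequences). Per the methods of the study a replicate was 1 culture dish of seeds, so p-values measure the spread between dishes of 1 line.

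In the family, 7 of the 13 sequences passed the filter, and 5 of the 7 passed the test, 1 higher and 4 lower in Ver. The median log2 fold change of the 7 was -0.58, beside -0.19 over all 405. The Ver and Nor libraries did not overlap for 5 of the 7, beside 71.6% of all tested sequences. The number of changed members was thus near the share seen over the whole table. When the cut-offs of the study (a log2 change beyond 1 in size, unadjusted p up to 0.05) were applied to the edgeR fit, 1 family sequence remained, aly-miR171b-5p, of 175 in all. These counts rest on merged and filtered sequences and are not the counts that the study reported.

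The most abundant member was bra-miR171e, the 3p strand listed at MIR171E. It had 2587, 2147 and 1822 reads in Ver, against 5916, 4131 and 4838 reads in Nor. On the RPM scale this was 3316, 3572 and 3203 in Ver and 5807, 5604 and 6521 in Nor, with means of 3364 ± 188.8 in Ver and 5977 ± 482 in Nor (SD, n = 3 each). Every Ver library was below every Nor library, and the gap between the groups was larger than the SD of either. The log2 fold change was -0.83 (SE 0.0812, 95% interval -1.01 to -0.65, adjusted p = 1.80e-05, edgeR with Benjamini-Hochberg), which is 1.78-fold lower in Ver. Over the 6 libraries the sequence ranked between 21 and 39 among all sequences by reads.

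The C14T form, the 3p strand found in the A09 hairpin, fell alongside bra-miR171e. It had 1333, 1150 and 1169 reads in Ver, against 3429, 2614 and 2594 reads in Nor. Its means were 1892 ± 174 RPM in Ver and 3469 ± 93.1 RPM in Nor (SD, n = 3 each), and the libraries did not overlap. The log2 fold change was -0.88 (SE 0.0843, 95% interval -1.07 to -0.68, adjusted p = 1.60e-05, edgeR with Benjamini-Hochberg). The balance between these near-identical sequences differed between the groups by less than its spread. The C14T form held 34.01%, 34.9% and 39.1% of their summed reads in Ver and 36.7%, 38.8% and 34.9% in Nor, a difference of -0.794 percentage points (two-sided exact permutation p = 0.7). Only C14T separates them, so the division of reads between them is uncertain.

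The bra-miR171a sequence, the offset 3p strand carried by MIR171A, MIR171B, MIR171C and MIR171D, was far less abundant. Summed over its 4 rows it had 103, 53 and 58 reads in Ver, against 149, 134 and 178 reads in Nor. Its means were 107 ± 22.4 RPM in Ver and 189 ± 47.3 RPM in Nor (SD, n = 3 each). The groups did not overlap, but the highest Ver library (132 RPM) and the lowest Nor library (146.3 RPM) lay close together. The log2 fold change was -0.80 (SE 0.224, 95% interval -1.31 to -0.30, adjusted p = 0.0120, edgeR with Benjamini-Hochberg). Without Ver 2, without Ver 3 or without Nor 3 the call was lost, with log2 fold changes of -0.59, -0.69 and -0.55 and adjusted p of 0.0676, 0.0624 and 0.0821 (edgeR, Benjamini-Hochberg).

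The remaining abundant 3p sequence, gma-miR171c-3p_2ss19AT21AT from the hairpin on A06:10287031-10287128, differs from bra-miR171a only in its last bases. It had 100, 86 and 94 reads in Ver, against 142.5, 97 and 144.5 reads in Nor. Its means were 145.5 ± 18.7 RPM in Ver and 155 ± 34.1 RPM in Nor (SD, n = 3 each), and the libraries overlapped. The log2 fold change of -0.09 (95% interval -0.52 to 0.33, adjusted p = 0.669, edgeR with Benjamini-Hochberg) did not pass the test, and the interval still allows a change of moderate size in either direction.

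**Figure D1:**
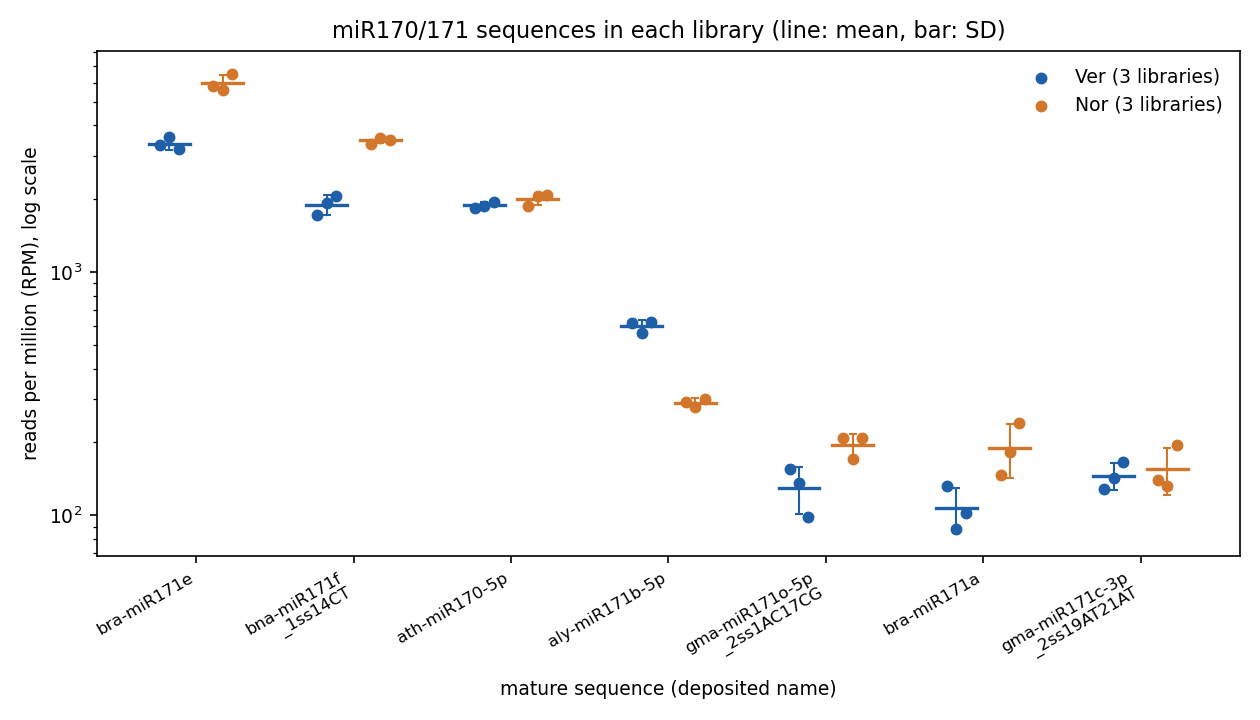
RPM on a log axis of the 7 tested miR170/miR171 sequences in each Ver (blue, left) and Nor (orange, right) library, with lines for means and bars for SD. Ver lies below Nor for bra-miR171e, bna-miR171f_1ss14CT, bra-miR171a and gma-miR171o-5p_2ss1AC17CG, lies above Nor for aly-miR171b-5p, and overlaps Nor for ath-miR170-5p and gma-miR171c-3p_2ss19AT21AT.

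Among the 5p strands, 1 was higher in Ver, 1 was lower and 1 did not pass the test. The ath-miR170-5p sequence, the partner of bra-miR171e in MIR171E, had 1427, 1121 and 1105 reads in Ver, against 1897, 1507 and 1538 reads in Nor. The TMM-scaled levels were 1829, 1865 and 1943 RPM in Ver and 1862, 2044 and 2073 RPM in Nor, with means of 1879 ± 58.1 in Ver and 1993 ± 114.5 in Nor (SD, n = 3 each). The libraries overlapped, and the log2 fold change was -0.08 (SE 0.0767, 95% interval -0.26 to 0.09, adjusted p = 0.354, edgeR with Benjamini-Hochberg). The interval leaves out a fall of the size seen for bra-miR171e.

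The aly-miR171b-5p sequence, the 5p strand shared by MIR171B, MIR171C and MIR171D, was the 1 tested family sequence that was higher in Ver. Summed over its 3 rows it had 481, 337 and 353 reads in Ver, against 298, 205 and 224 reads in Nor. The levels were 617, 561 and 621 RPM in Ver and 292.5, 278.1 and 302 RPM in Nor, with means of 599 ± 33.5 in Ver and 291 ± 12.01 in Nor (SD, n = 3 each). The lowest Ver library was well above the highest Nor library. The log2 fold change was 1.04 (SE 0.0966, 95% interval 0.82 to 1.26, adjusted p = 1.31e-05, edgeR with Benjamini-Hochberg), a 2.06-fold higher level in Ver.

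The third 5p strand, gma-miR171o-5p_2ss1AC17CG, had 121, 82 and 56 reads in Ver, against 212, 126 and 154 reads in Nor. Its means were 130 ± 28.9 RPM in Ver and 195.5 ± 21.3 RPM in Nor (SD, n = 3 each), with no overlap between the libraries. The log2 fold change was -0.58 (SE 0.183, 95% interval -0.995 to -0.17, adjusted p = 0.0208, edgeR with Benjamini-Hochberg). It was the least firm of the 5 calls. Without Ver 2, Ver 3, Nor 1 or Nor 3 the adjusted p was 0.0931, 0.1003, 0.149 and 0.122 (edgeR, Benjamini-Hochberg). Without Ver 3, the library with the lowest level, its log2 fold change was -0.36, and without Ver 1 it was -0.68.

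**Figure D2:**
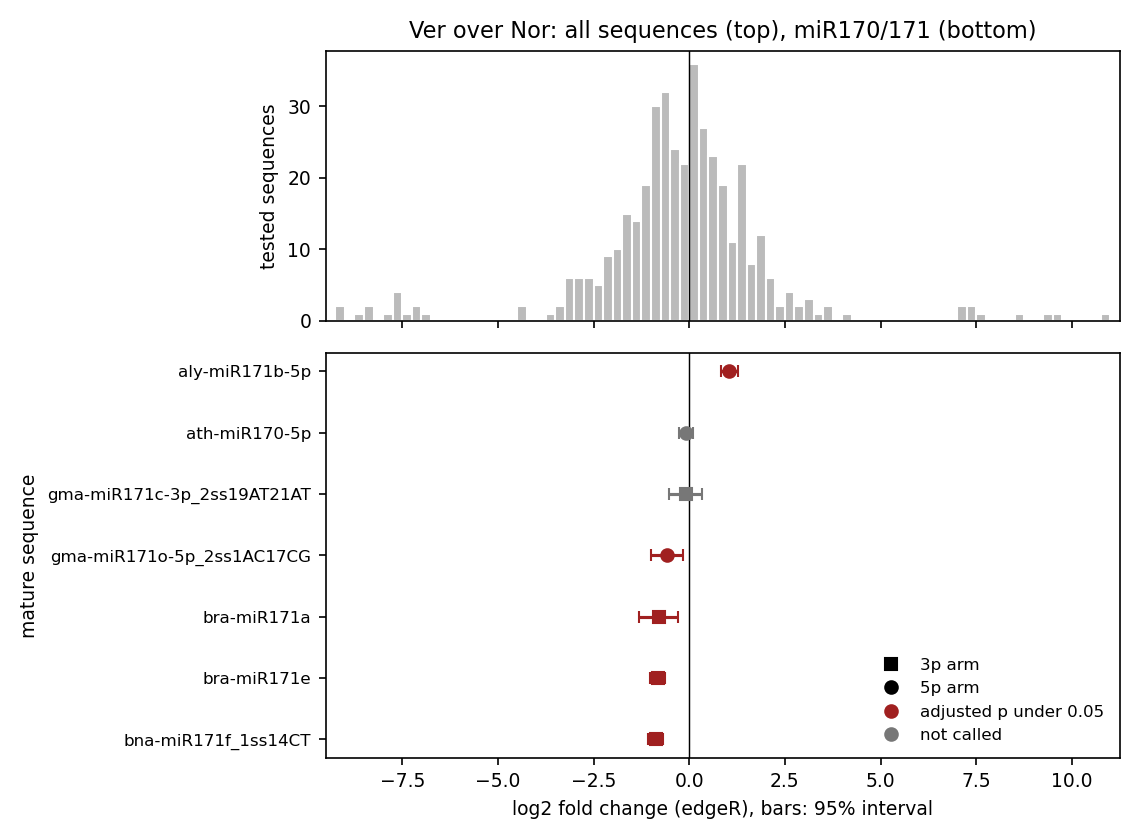
Log2 fold change of Ver over Nor, as a histogram of all 405 tested sequences (top) and for the 7 tested miR170/miR171 sequences (bottom) with 95% intervals, squares for 3p and circles for 5p arms, red where the adjusted p was under 0.05. The family lies between -0.88 (bna-miR171f_1ss14CT) and 1.04 (aly-miR171b-5p), inside the range of the other sequences.

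Ordered by mean RPM in Ver, all being 21 nt long, bra-miR171e led, followed by the C14T form and ath-miR170-5p, whose Ver levels overlapped (1709 to 2055 RPM and 1829 to 1943 RPM), and then by aly-miR171b-5p at 599 RPM. In Nor the C14T form (3366 to 3546 RPM) was apart from ath-miR170-5p (1862 to 2073 RPM). The 3 least abundant of the tested sequences, bra-miR171a, gma-miR171o-5p_2ss1AC17CG and gma-miR171c-3p_2ss19AT21AT, overlapped each other in both groups.

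Added together, the 13 sequences held 7896, 8278 and 8200 RPM in Ver, against 11851, 11983 and 13056 RPM in Nor. The means were 8124 ± 202 RPM in Ver and 12297 ± 661 RPM in Nor (SD, n = 3 each), a log2 ratio of -0.60, given with no test because the members were chosen with earlier results known. The 3p arms (7 sequences, with lus-miR171g_R+2_1ss14TC placed by its sequence although listed as a 5p arm) summed to 5513 ± 217 RPM in Ver and 9811 ± 574 RPM in Nor. The 5p arms (4 sequences) summed to 2608 ± 50.3 RPM in Ver and 2483 ± 111 RPM in Nor, and their libraries overlapped. The lower family sum in Ver was thus carried by 3p reads, and mainly by the seed GATTGAG, which held 5256 ± 230 RPM in Ver and 9449 ± 493 RPM in Nor (SD, n = 3 each).

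Shares were compared next. The share of the family in all miRNA reads restates its level scaled to the library total, whereas shares within the family do not depend on how libraries are scaled. The family held 0.798%, 0.845% and 0.778% of all miRNA reads in Ver, against 1.25%, 1.18% and 1.29% in Nor. Of the family reads, 5p arms held 32.9%, 30.9% and 32.5% in Ver and 19.9%, 20.9% and 19.8% in Nor. The lowest Ver library (Ver 2) had a 95% Wilson interval of 29.7 to 32.2% and the highest Nor library (Nor 2) one of 20.1 to 21.7%, where the intervals hold counting error alone, since PCR copies were not marked by molecular identifiers. The share of bra-miR171e in the family was 41.4% ± 2.1 in Ver and 48.6% ± 1.64 in Nor (SD, n = 3 each). Each of these 3 shares separated the groups fully, with a two-sided exact permutation p = 0.1 (n = 3 each), the smallest that 3 against 3 libraries allow, and a Benjamini-Hochberg value of 0.12 over the 6 library quantities compared.

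**Figure D3:**
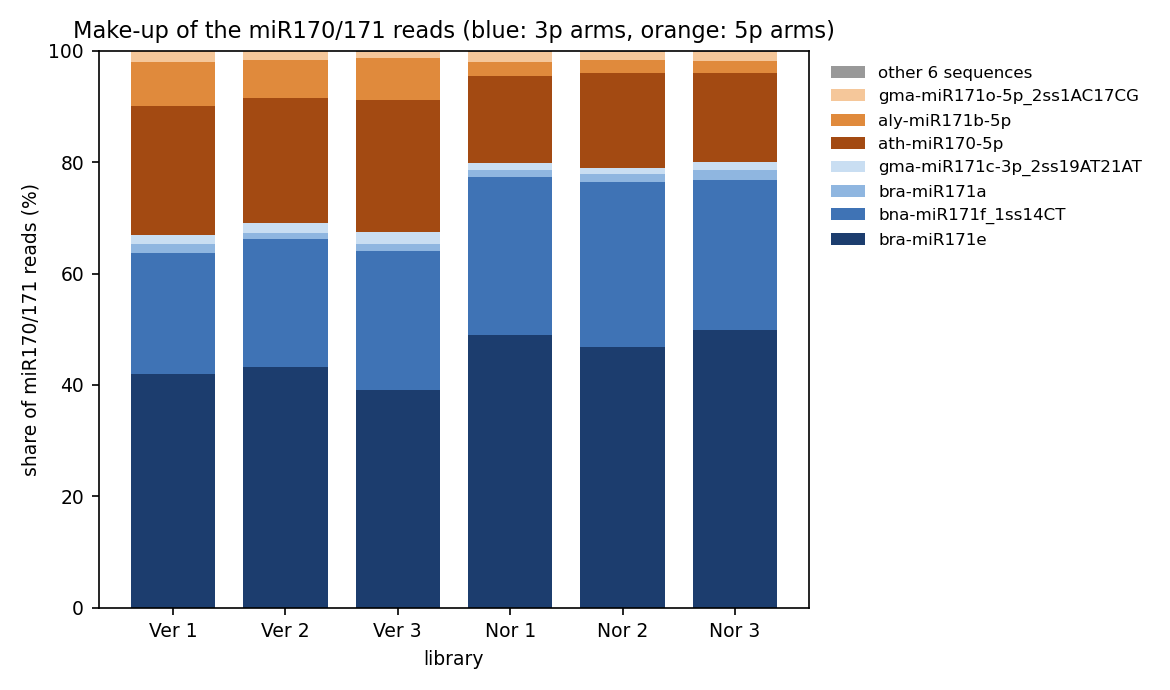
Share (%) of the miR170/miR171 reads of each library held by each sequence, 3p arms in blue and 5p arms in orange, with the 3 Ver libraries left of the 3 Nor libraries. The orange part takes 30.9 to 32.9% of the Ver bars and 19.8 to 20.9% of the Nor bars.

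The balance of the strands was then compared, first over the whole family and then for arms listed on the same precursor, each ratio being taken within a library. For the whole family the log2 ratio of 3p to 5p reads was 1.02, 1.16 and 1.06 in Ver, against 2.01, 1.92 and 2.02 in Nor, a difference of -0.90 (two-sided exact permutation p = 0.1, n = 3 each, the smallest possible). To read single precursors against a background, the log2 ratio of 3p to 5p reads (plus 1 read each) was fitted with limma for all 86 pairs of arms listed on one precursor, a test chosen after seeing the data. Some 3p names outside the family, such as ath-miR166a-3p, recur in several pairs, so the pairs are not all independent. Of the 86 pairs, 56 differed between Ver and Nor (65.1%), 29 with more and 27 (31.4%) with less 3p per 5p in Ver. The median difference over all pairs was -0.01. A change in arm ratio was therefore common in these libraries and was not particular to the family, where 2 of 3 pairs passed the test.

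For bra-miR171e against ath-miR170-5p the log2 ratio was 0.86, 0.94 and 0.72 in Ver, against 1.64, 1.45 and 1.65 in Nor. This corresponds to 1.79 reads of the 3p strand per 5p read in Ver and 2.99 in Nor, with no overlap between libraries. The difference was -0.74 (SE 0.0838, 95% interval -0.95 to -0.54, adjusted p = 3.76e-04, limma with Benjamini-Hochberg over 86 pairs). The 3p sequence is also encoded on A01 and is present in a 32-nt entry at A09:468958-468989, listed for lus-miR171g_R+2_1ss14TC. The 5p sequence is also present in the A09 hairpin of the C14T form, so this ratio mixes loci. Adding the C14T form to the 3p side, which covers the A09 hairpin, gave 1.48 ± 0.0639 in Ver and 2.24 ± 0.0732 in Nor (SD, n = 3 each), a similar difference of -0.76.

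The pair with the larger shift was bra-miR171a against aly-miR171b-5p, in which the 5p strand was the more abundant one in all 6 libraries. The log2 ratio of 3p to 5p reads was -2.21, -2.65 and -2.58 in Ver, against -0.995, -0.61 and -0.33 in Nor. There were 5.58 reads of the 5p strand per 3p read in Ver and 1.56 in Nor. The difference was -1.84 (SE 0.207, 95% interval -2.34 to -1.33, adjusted p = 3.76e-04, limma with Benjamini-Hochberg over 86 pairs). Here the strands moved apart in both directions, since the 3p strand was lower and the 5p strand higher in Ver. MIR171A also encodes bra-miR171a and its own 5p sequence was not listed, so this ratio mixes loci too.

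The third pair came from the hairpin on A06:10287031-10287128. For gma-miR171c-3p_2ss19AT21AT against gma-miR171o-5p_2ss1AC17CG the log2 ratio was -0.27, 0.07 and 0.74 in Ver, against -0.57, -0.37 and -0.10 in Nor. The libraries overlapped, and the difference of 0.53 (SE 0.278, 95% interval -0.16 to 1.21, adjusted p = 0.150, limma with Benjamini-Hochberg over 86 pairs) did not pass the test. Its interval does not overlap those of the other pairs, which lie below 0.

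**Figure D4:**
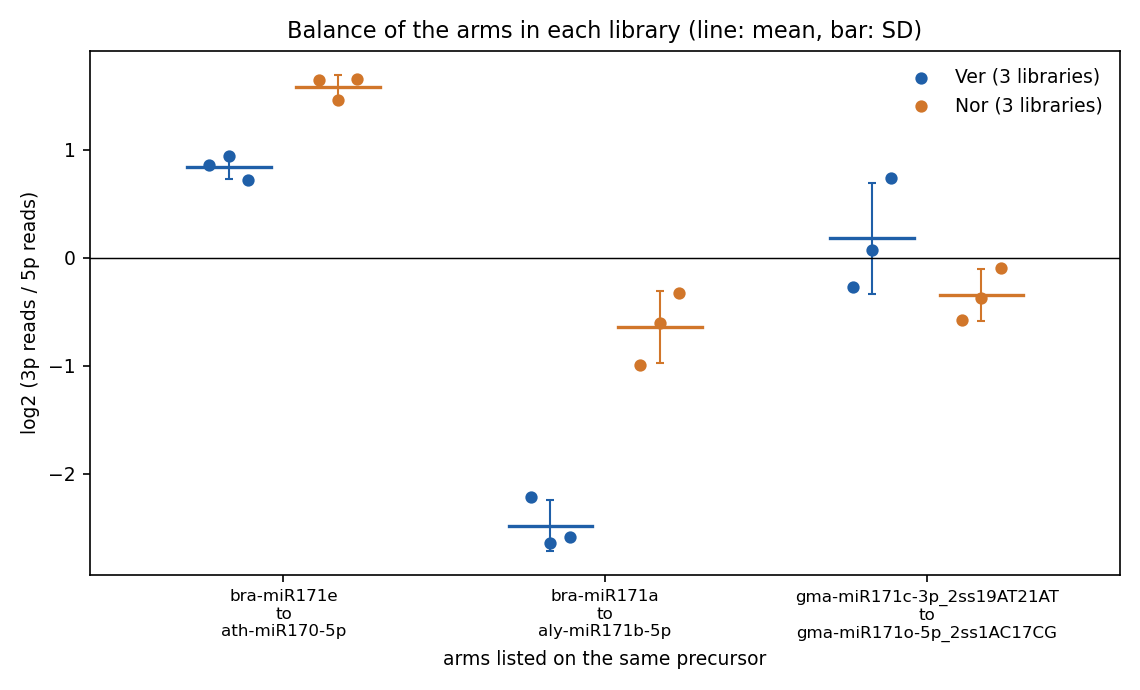
Log2 ratio of 3p to 5p reads for the 3 precursor pairs of the miR170/miR171 family in each Ver (blue, left) and Nor (orange, right) library, with lines for means and bars for SD. The ratio is lower in Ver for bra-miR171e to ath-miR170-5p (difference -0.74) and bra-miR171a to aly-miR171b-5p (-1.84), while the libraries of the third pair overlap.

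The other 6 family sequences were too rare to test, with at most 22 reads in any library. The highest was sbi-miR171g_L+2, a form of bra-miR171e with 2 more bases at the 5′ end, with 0, 0 and 7 reads in Ver and 22, 0 and 16 reads in Nor. It was not placed on the genome. The ath-miR170-5p_R+2 form, with 2 more bases at the 3′ end, had 7 reads in Nor 2 alone, and lus-miR171g_R+2_1ss14TC, a longer form of bra-miR171e, had 7 reads in Nor 1 alone. Neither of these forms was found whole in the precursor on which it was listed. The 19-nt mtr-miR171d_L-3R+1, a shortened form of gma-miR171c-3p_2ss19AT21AT that was listed on a hairpin without it, had 2.5 reads in Nor 1 and 5.5 in Nor 2. Thus variants with changed ends were a very small part of the listed family reads, 46394 over the 6 libraries. Whether the table lists every such variant is not known, so their share in the seeds was not measured. The predicted PC-5p-90014_28, described below, is not among them because of its name.

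The last 2 of the rare sequences, mtr-MIR171h-p5 and mtr-MIR171h-p3_2ss20AG21CA, carry the family number by name alone. Their seed ATAATGA and their sequence have no stretch TTGAGCCG, the longer one was listed as both a 5p and a 3p arm, and 1 of their 2 loci (A04:6822891-6822911) is an entry of 21 nt, no longer than the mature sequence. The longer had 8 reads in Ver 1 and 5 reads in Nor 2, and the shorter had 2.5 reads in Nor 2. Leaving them out left the log2 ratio of the family sum at -0.60.

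Outside the family, 1 sequence matched a member with up to 2 mismatches over 16 bases or more. It was the predicted PC-5p-90014_28, listed on the same hairpin as gma-miR171o-5p_2ss1AC17CG and differing from it in 1 base. It had 0, 0 and 27 reads in Ver, against 29, 5 and 29 reads in Nor, so replicates of each group differed widely. The log2 fold change was -0.73 (SE 1.22, adjusted p = 0.604, edgeR with Benjamini-Hochberg), and no difference was detected.

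The 3 sequences outside the family whose pattern over the 6 libraries was most like that of bra-miR171e were bra-miR403-5p, bna-miR6030 and bra-MIR1140-p5. The root mean square difference of centred log2 RPM was 0.0873, 0.0999 and 0.104 for them, among 236 sequences with a mean of at least 50 RPM. Within the family the C14T form was nearest at 0.122 and aly-miR171b-5p farthest at 0.94. The ath-miR170-5p sequence, listed on the same hairpin as bra-miR171e, was at 0.383, although each of them also occurs at other loci.

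Other miRNA families with known roles in Arabidopsis meristems, leaves or phase change gave a wider frame. Of 107 tested sequences in 14 such families, 39 were higher and 37 lower in Ver (edgeR, adjusted p under 0.05), with a median log2 fold change of 0.01. Over all 405 tested sequences, 28.1% were higher and 32.8% lower. In the miR160 and miR169 families, regulators of auxin response factors and of NF-YA genes, 8 of 9 and 11 of 15 sequences were lower and 0 higher. In the miR159 family, which acts on GAMYB-like genes, 7 of 8 were higher. In the miR164, miR172 and miR396 families, 3 of 5, 3 of 4 and 3 of 4 were higher and 0 lower. The miR170/miR171 family, with 4 of 7 lower and 1 higher, was mixed, as were the miR319 family with 5 higher and 4 lower of 10 and the miR156 family with 8 higher and 3 lower of 20. Calls in both directions were also made for miR166 (6 higher and 1 lower of 12), miR167 (2 and 7 of 12) and miR394 (2 and 2 of 4). The miR157, miR165 and miR393 families had at most 2 tested sequences each.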

How the data were processed

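Small RNA libraries (TruSeq kit, single-end reads) of 3 Ver and 3 Nor samples were analysed from 1 deposited table. Per the methods of the study, adapter dimers, low-complexity reads and common RNA families were removed, and unique sequences of 18 to 25 nt were matched by BLAST to miRBase precursors, with coordinates on B. rapa v3.0. The raw values deposited by the authors are estimated counts, since reads were divided over rows by a rule that was not given in the sources used here. Of nonzero values listed on 2 rows, 47.6% were whole (tolerance 0.02) and 96.8% after multiplying by the rows. The normalized values of the authors are a signal, the raw value times 1 factor per library (0.606 to 1.222), and served as an alternative only.

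Rows were added per distinct sequence and rounded to whole numbers. Ver was compared with Nor by the quasi-likelihood test of edgeR 4.0.16 (R 4.3.3, TMM, filterByExpr, group only, biological coefficient of variation 0.146), Benjamini-Hochberg adjusted over all tested sequences and called under 0.05. Arm ratios were fitted with limma 3.58.1. Library shares were compared by exact permutation. Replicates of a group differed by more than counting error. The scripts were tested on simulated data. DESeq2 1.42.0, other scalings and filters, leaving out libraries and a replicate block were alternatives. The members, families and lists were chosen with earlier results of these data known. All members were named, with the 3 sequences most like bra-miR171e (smallest root mean square difference of centred log2 RPM, prior count 0.5, mean of at least 50 RPM) and relatives with up to 2 mismatches over 16 bases.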

Additional observations from a re-analysis of the deposited data

How the results depend on the processing

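The calls of bra-miR171e, bna-miR171f_1ss14CT and aly-miR171b-5p held under all 16 alternatives, with adjusted p up to 0.00243, 0.00410 and 4.39e-04 (edgeR, DESeq2 or limma, Benjamini-Hochberg). The number of family sequences called was 3 instead of 5 with no filter on low counts. That setting tested 13 family sequences and called 244 of all 872. With limma on the normalized value plus 0.1 or plus 1 it was 3 of 7, with 217 and 241 of all 405 called. It was 4 of 7 with DESeq2 (229 of all 405 called) and with each name as listed (283 of 416). When 1 library was left out it was 3 to 5, with 216 to 249 sequences called in all. The sequences that lost their call were bra-miR171a in 7 of 16 alternatives (adjusted p 0.00592 to 0.0821) and gma-miR171o-5p_2ss1AC17CG in 8 of 16 (0.0149 to 0.149). The uncalled sequences changed sign without passing the threshold. For ath-miR170-5p the log2 fold change was 0.0156 with DESeq2, 0.0509 with the factors of the authors, 0.0132 with each name as listed and 0.0505 with limma at either pseudocount. For gma-miR171c-3p_2ss19AT21AT these values were 0.0109, 0.0453, 0.00285, and 0.0537 (plus 0.1) and 0.0531 (plus 1), and leaving out 1 library gave -0.14 to 0.14. Scaling moved the median over the tested sequences between -0.21 with library totals and -0.06 with the factors of the authors, under which bra-miR171e stood at -0.69 and aly-miR171b-5p at 1.18. The log2 ratio of summed family reads was -0.46 with the normalized values of the authors and -0.62 to -0.55 without 1 library. The difference in family arm balance was -0.77 with the value of 1 row as listed. Over all sequences, 175 to 283 were called over 17 alternatives. Per the methods the seeds were divided into the groups after germination, so whether libraries of equal number share a dish is not known. Correlations of the deviations of Ver 1, 2 and 3 with the same number in Nor were 0.143, -0.06 and 0.0342. Of the 3, 1 correlated best with its own number. So few correlations cannot decide whether the samples were paired. With the replicate block 204 sequences were called in place of 247 and 5 in the family, and the pair gma-miR171c-3p_2ss19AT21AT to gma-miR171o-5p_2ss1AC17CG passed the limma test (difference 0.53, adjusted p = 0.0377). The causes of these shifts were not tested. The 6 untested family sequences, with at most 22 reads in a library, are limited by depth, and a listed 0 is not shown to be absence.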
